A study of Mus musculus with 6 samples.

Results

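The genes described here are 34 genes of the integrated stress response and of amino acid supply, read from 55487 gene rows in mouse embryonic stem (ES) cells that were losing DDX6, an RNA helicase of cytoplasmic RNA granules that takes part in translational repression and mRNA decay. They were taken from a list of named genes as stress regulators and as targets of the transcription factor ATF4. No threshold on their values was used, but the list was chosen with earlier results of these data known. It holds 7 transcription factor genes, 7 genes of feedback inhibitors and stress effectors, 8 genes of amino acid synthesis, 6 amino acid transporter genes and 6 transfer RNA (tRNA) ligase genes. Every library came from the D6AdP line, in which both Ddx6 alleles carry an auxin-inducible degron with mCherry, 1 Dcp1a allele carries EGFP and an OsTIR1-FLAG transgene supplies the plant protein that hands degron-tagged proteins to the proteasome. The auxin analog 5-Ph-IAA (500 nM) had been present for 0, 3 or 6 h, with 2 libraries for each time, on mitomycin-treated fibroblast feeders and in medium with leukemia inhibiting factor, PD0325901 and CHIR99021. All 3 groups carry the same alleles and the same transgene. The labels give no time-matched wells without the analog and no parental line, so the analog, the hours in the wells and the loss of DDX6 cannot be told apart.

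In the integrated stress response, kinases that sense amino acid shortage, unfolded protein in the endoplasmic reticulum, double-stranded RNA or lack of heme phosphorylate the translation factor eIF2. Bulk protein synthesis then falls while the mRNA of ATF4, held back by short upstream reading frames, is translated better. ATF4 pairs with C/EBP proteins on a composite DNA element and switches on genes that make, import and charge amino acids, together with a second tier of regulators, CHOP (Ddit3) and TRIB3, that dampen or redirect the response. ES cells divide fast and draw heavily on serine, glycine and threonine metabolism.

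At 6 h the list split. Of the 34 genes 6 rose: Chac1, Stc2, Trib3, Slc7a11, Ddit4 and Ddit3, with increases from 1.29-fold (Ddit3) to 2.23-fold (Chac1). In the same libraries 17 fell, Atf4 itself and 13 of the 20 amino acid genes among them, by between 0.11 and 0.40 on the log2 scale. Called, rose and fell mean here and below that edgeR's two-sided quasi-likelihood test, adjusted by the Benjamini-Hochberg method over 15748 genes, gave p under 0.05. In that comparison 22.3% of all genes tested were called, 10% higher and 12.3% lower. At 3 h none of the 34 was called. Among the 14 stress regulators 5 rose and 4 fell, with a median change of 0.02 on the log2 scale, and among the 20 amino acid genes 1 rose and 13 fell, with a median of -0.14. The median over all genes tested was 0.00195.

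The letters that the ATF4 and C/EBP pair is known to prefer were looked up in the promoters first, since the members that rose, fell or were not called can be set beside them. RefSeq promoter windows on GRCm38.p6, 250 bases before to 50 after each listed start, were found for 29 of the 34 members, with 35 windows in all. Slc7a5, Slc7a3, Wars, Nars and Cars had no entry. TGATGCAA, or TTGCATCA on the other strand, lay in 7 of these 35 windows, from 7 of the 29 genes, and in 294 of all 32851 windows (0.895%). A relaxed form was searched on both strands as well. TGATGNAA, which includes every TGATGCAA, lay in 10 of the 35 member windows, from 10 members, and in 3.97% of all windows. The list was drawn up from known targets of ATF4, so these shares are a description and not independent evidence. The stretches below are 30 bases each, 5′ to 3′ on the gene's own strand, with the element in capitals. They are examples from members that rose, fell or were not called, and not every member with a match is shown.
Chac1, chr2:119351038-119351067, plus strand: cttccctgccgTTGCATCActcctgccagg
Slc7a11, chr3:50443652-50443681, minus strand: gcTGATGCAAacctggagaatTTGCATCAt
Pycr1, chr11:120643833-120643862, minus strand: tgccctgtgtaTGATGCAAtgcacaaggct
Asns, chr6:7693214-7693243, minus strand: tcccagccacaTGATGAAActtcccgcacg
Atf3, chr1:191183425-191183454, minus strand: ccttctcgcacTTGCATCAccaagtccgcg
Nupr1, chr7:126625562-126625591, minus strand: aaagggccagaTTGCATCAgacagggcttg

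In GENCODE M21 the Chac1, Slc7a11 and Pycr1 stretches lay outside every annotated gene, the Atf3 stretch lay in an intron of a longer Atf3 transcript, and the Asns and Nupr1 stretches overlapped an exon of their own gene that starts further upstream than the RefSeq start used. The Slc7a11 stretch holds 2 copies, 66 and 47 bases before the start. Asns has the relaxed form, 23 bases before the start. At 6 h Chac1 and Slc7a11 rose, Pycr1 and Asns fell, and Atf3 and Nupr1 were not called against 0 h, so members with the element were found in every class. Trib3, which rose, and Gars, which fell, held the relaxed form alone, and Vldlr, which was not called, held TGATGCAA in its second window. ACGTG, searched on both strands, is the core that hypoxia-inducible factors and several other factors share. It was in 10 of the 35 member windows, from 10 members, and in 19.6% of all windows. A match of letters is not a measured binding site, and no match says only that the letters are absent from these bases.

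The libraries held 16357142 to 21846959 counts in genes. CPM is the usual depth-scaled count, here with TMM factors. Before those factors 3 counts stood for 0.137 to 0.183 CPM. All 34 members passed the filter on low counts. Log2 CPM of the 2 libraries of a group correlated across genes at 0.994 to 0.996. Nothing in the labels ties the libraries of a group to separate cultures, and the p-values therefore reflect library-to-library spread alone, possibly of technical origin. Ddx6, whose protein and not mRNA is the target of the degron, changed on the log2 scale by 0.06 at 3 h (adjusted p = 0.602, edgeR quasi-likelihood test) and -0.03 at 6 h (adjusted p = 0.581). All 10 ES cell markers were detected, and 7 of them were called at 6 h against 0 h: Nanog, Tdgf1 and Sox2 rose, and Esrrb (-0.42 on the log2 scale), Tfcp2l1, Zfp42 and Dppa5a fell. The 10 markers summed to 5485 and 5662 CPM at 0 h and to 5082 and 5237 CPM at 6 h, and the 34 members to 4163 and 4349 CPM at 0 h and to 3872 and 3913 CPM at 6 h. Both sums were lower in the 6 h libraries, and the part of the ES cell share in the member changes was not tested. The feeder fibroblasts contributed RNA to every library: 18 fibroblast markers summed to 24865 and 22633 CPM in the 0 h libraries, to 21965 and 21470 in those of 3 h and to 24364 and 21802 in those of 6 h. None of the 18 was called at 3 h or 6 h against 0 h. At 3 h, however, all 18 lay below 0 with a median log2 fold change of -0.13, 16 had 3 h libraries below both at 0 h and 14 had an unadjusted p under the threshold. At 6 h their median was -0.03. The feeder part in the member changes was not tested beyond a fit with the feeder markers as a covariate. In bulk RNA, fewer cells of a type and less RNA per cell cannot be told apart.

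**Figure D1:**
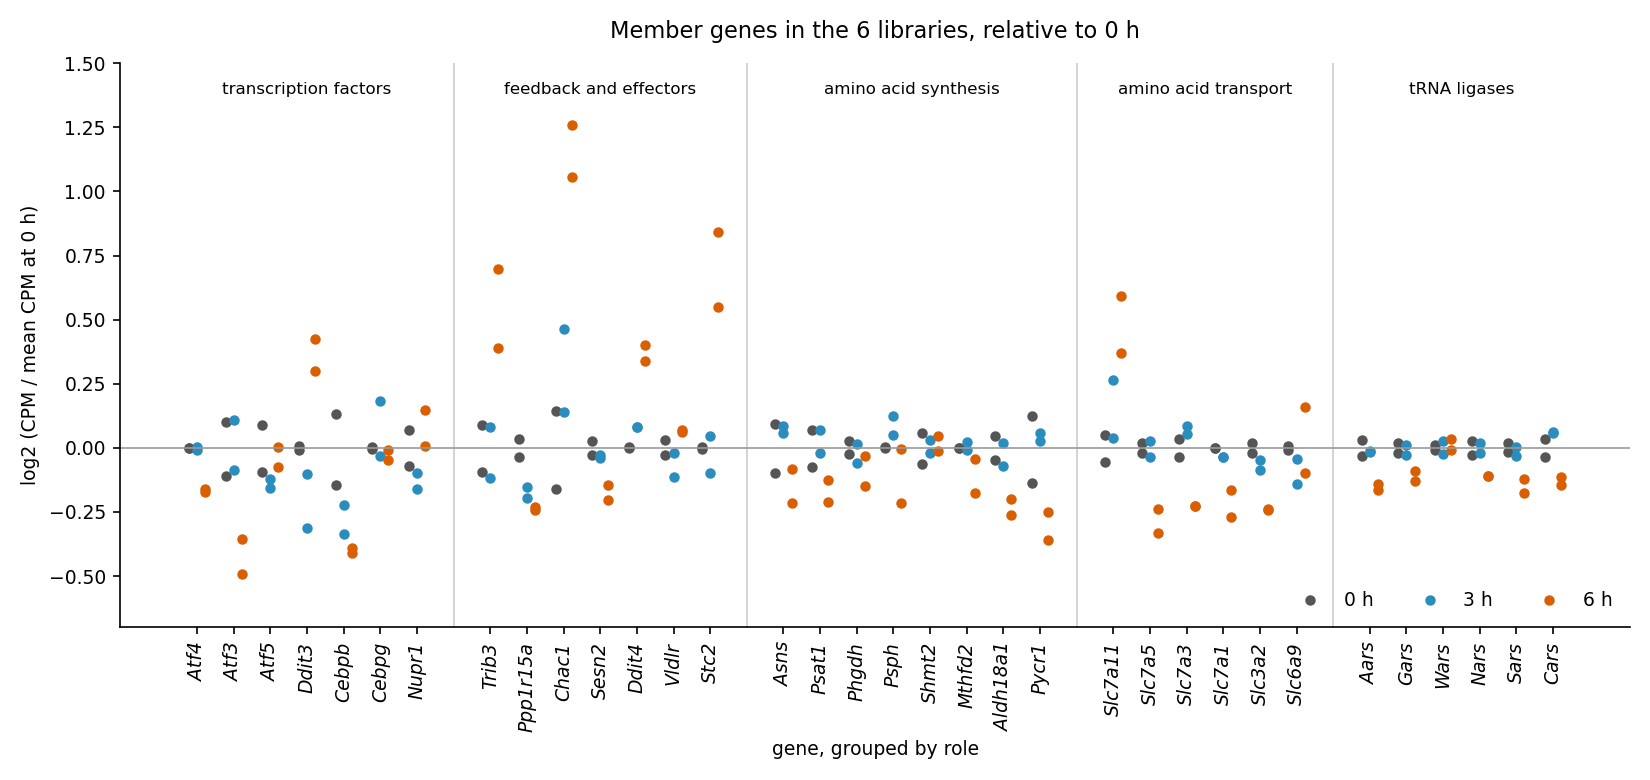
Log2 of the CPM of each of the 34 members in each of the 6 libraries over its mean CPM in the 2 libraries at 0 h, with genes grouped by role. Chac1, Stc2, Trib3, Slc7a11, Ddit4 and Ddit3 stand above 0 in both 6 h libraries, while most genes of synthesis, transport and tRNA charging stand slightly below it.

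The transcription factors did not move as a block. Atf4 (ENSMUSG00000042406, chromosome 15, 80255184 to 80257541 on GRCm38, plus strand), the master regulator of the response, stood at 225.0 and 224.9 CPM at 0 h, 224 and 226 after 3 h and 201 and 199 after 6 h. Both 6 h libraries were below the other four. Its mRNA fell by 0.17 on the log2 scale at 6 h (SE 0.03, n = 2 libraries per group, adjusted p = 0.00202, edgeR quasi-likelihood test). These counts measure Atf4 mRNA and not the translation by which ATF4 is mainly controlled. Ddit3 (ENSMUSG00000025408, chromosome 10, 127290774 to 127296288), which encodes CHOP, a factor linked to cell death under prolonged stress, read 9.95 and 9.83 CPM at 0 h, 9.22 and 7.96 at 3 h, then 13.3 and 12.2 at 6 h. The 6 h libraries were the highest of the 6. Ddit3 rose by 0.36 (SE 0.10, adjusted p = 0.0185), a call that was kept in 11 of 15 alternative settings and was lost, for example, without the second 0 h library or the first 6 h library, with an adjusted p of up to 0.198. Of its exon bases 6.13% overlap another gene on the same strand and 4.73% a gene on the opposite strand, and the strand setting of the counting is not given in the sources used here.

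Cebpb, a C/EBP partner of ATF4, was the transcription factor gene with the largest called decrease. It had 23.5 and 19.5 CPM at 0 h, 18.4 and 17.0 after 3 h and 16.4 and 16.2 after 6 h, so every treated library was below both at 0 h, and the fall at 6 h was 0.40 on the log2 scale (SE 0.09, adjusted p = 0.0044, edgeR quasi-likelihood test). The first 0 h library was the highest by a margin, and without it the log2 change shrank to -0.25 and the call was lost (adjusted p = 0.0728), as it was without the filter on low counts (adjusted p = 0.0503). Of its exon bases 20.7% lie opposite Tmem189. Atf3, an immediate stress repressor gene, was scarce, at 3.01 and 3.48 CPM at 0 h, 3.50 and 3.05 at 3 h and, at 6 h, 2.53 and 2.31. The 6 h values lay below all others, but the log2 fold change of -0.43 (SE 0.20) did not pass the test (adjusted p = 0.129). Nupr1, a small stress-induced chromatin protein gene, had 34.6 and 31.4 CPM at 0 h, 29.6 and 30.9 after 3 h and 36.5 and 33.2 after 6 h. Its 0 h and 6 h values overlapped, and it was called only for 6 h against 3 h, with a log2 fold change of 0.20. That call held in 9 of the 15 alternatives, and with the feeder markers as a covariate the change was 0.08 (adjusted p = 0.574). Atf5, a relative of Atf4 with the same kind of upstream reading frames, and Cebpg, the usual heterodimer partner, had log2 fold changes at 6 h of -0.03 (adjusted p = 0.709) and -0.03 (adjusted p = 0.818).

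Among the 7 feedback and effector genes 4 rose and 2 fell at 6 h, with 0.37 as their median log2 fold change. Over all genes tested 10% rose and 12.3% fell. Chac1 (ENSMUSG00000027313, chromosome 2, 119351229 to 119354381, plus strand), which encodes an enzyme that degrades glutathione, had the largest increase of the 34. It stood at 2.85 and 3.52 CPM at 0 h, 4.40 and 3.52 at 3 h, then 6.63 and 7.62 at 6 h, from 55, 76, 93, 76, 110 and 142 counts. Both 6 h libraries were above every earlier one, and the log2 fold change was 1.16 (SE 0.17, adjusted p = 9.73e-05, edgeR quasi-likelihood test). Over the 15 alternatives it ran from 1.02 to 1.33 and was always called. Stc2, which encodes the secreted glycoprotein stanniocalcin 2, read 9.85 and 9.92 CPM at 0 h, 9.22 and 10.2 after 3 h and 14.5 and 17.7 after 6 h. Its groups at 0 h and 6 h were well apart, and it rose by 0.71 (SE 0.11, adjusted p = 0.000161).

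Trib3, a pseudokinase that binds ATF4 and CHOP and restrains them, had 12.4 and 14.1 CPM at 0 h, 12.2 and 14.1 at 3 h and, at 6 h, 21.5 and 17.4. It rose by 0.54 (SE 0.11, adjusted p = 0.00152, edgeR quasi-likelihood test), and the 6 h libraries, though unequal, were both above the rest. Ddit4, which encodes the mTORC1 inhibitor REDD1 and also responds to hypoxia, was the tightest of the rising genes: 35.4 and 35.5 CPM at 0 h, 37.5 and 37.5 after 3 h and 44.8 and 46.8 after 6 h. Its log2 fold change was 0.37 (SE 0.05, adjusted p = 0.00012). The decrease of Ppp1r15a (GADD34), the phosphatase subunit that reverses eIF2 phosphorylation, ran the other way. Its level was 39.2 and 37.5 CPM at 0 h, 34.5 and 33.5 at 3 h, then 32.7 and 32.4 at 6 h, every treated library being below both at 0 h, and it fell by 0.24 on the log2 scale (SE 0.06, adjusted p = 0.00689). The Ppp1r15a call was lost without the first 0 h library and in DESeq2 (adjusted p up to 0.105). Sesn2, a leucine sensor that holds back mTORC1, stood at 152 and 157 CPM at 0 h, 152 and 150.4 after 3 h and 140.1 and 134 after 6 h, and fell by 0.17 (SE 0.04, adjusted p = 0.0043). Vldlr, a lipoprotein receptor gene, was not called, with a log2 fold change of 0.07 (adjusted p = 0.577).

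**Figure D2:**
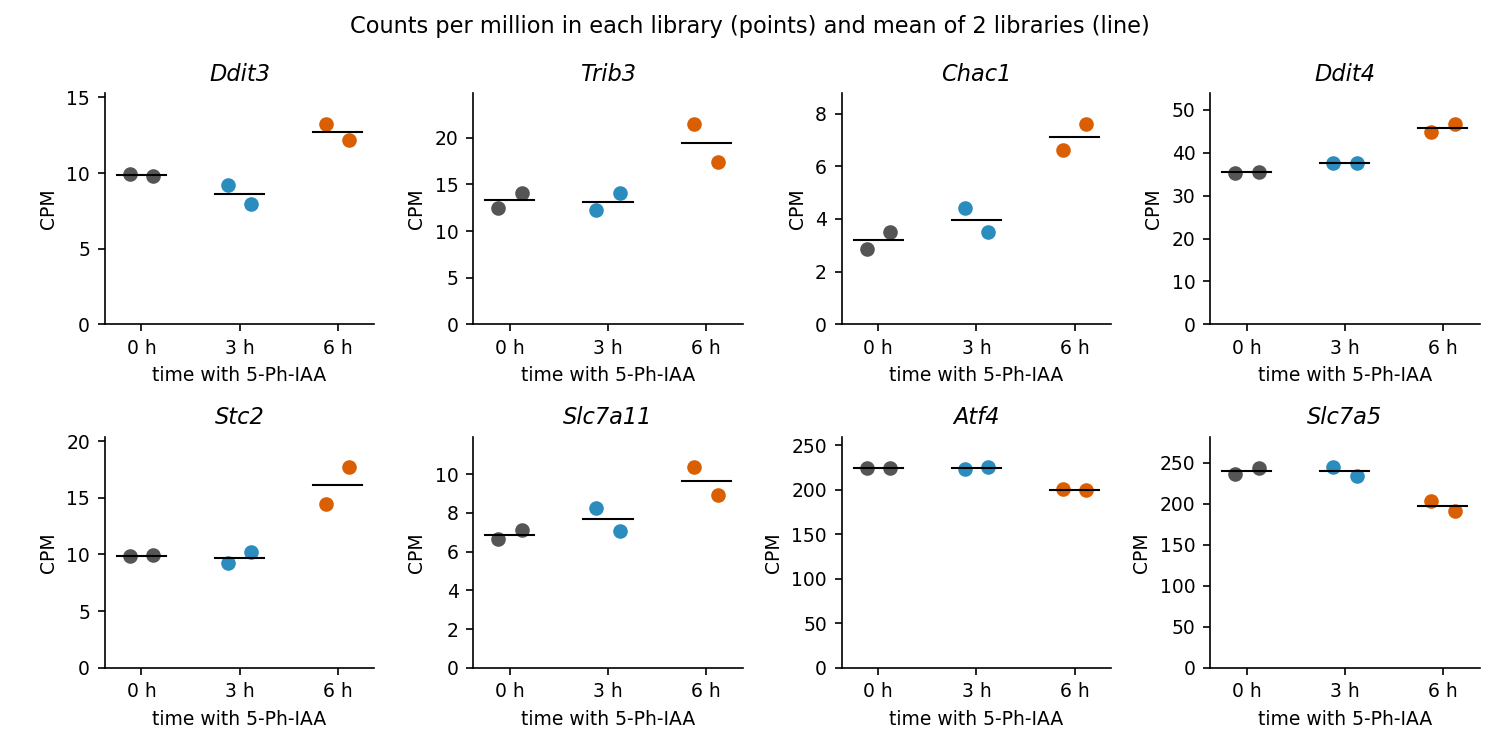
CPM in each of the 6 libraries (points) and the mean of each group of 2 (lines), on axes that start at 0, for the 6 members called higher at 6 h against 0 h and for Atf4 and Slc7a5, which were called lower, with hours of 5-Ph-IAA on the horizontal axis. Both 6 h points lie above all earlier points in the 6 rising genes and below them in Atf4 and Slc7a5.

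In amino acid synthesis no gene rose and 4 of 8 fell at 6 h, with -0.13 as their median log2 fold change. The shares over all genes tested were 10% higher and 12.3% lower. Asparagine synthetase, Asns (ENSMUSG00000029752, chromosome 6, 7675169 to 7693254, minus strand), a standard reporter of ATF4 activity, stood at 475 and 542 CPM at 0 h, 540.2 and 530.1 at 3 h and, at 6 h, 439 and 481. Its 0 h and 6 h libraries overlapped. The fall of 0.15 on the log2 scale (SE 0.05) had an adjusted p of 0.0476 with edgeR's quasi-likelihood test and was called in 5 of the 15 alternatives, its adjusted p reaching 0.576. The size of the Asns change also moved, from -0.05 without the second 0 h library and -0.07 without the first 6 h library to -0.23 without the first 0 h library. Psat1, which makes phosphoserine, had 228 and 252 CPM at 0 h, 236 and 252 after 3 h and 207 and 219.8 after 6 h, and fell by 0.17 (SE 0.05, adjusted p = 0.0174).

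The proline pathway genes Aldh18a1 and Pycr1, which catalyse its first and last steps, both fell. Aldh18a1 read 93.1 and 99.3 CPM at 0 h, 97.5 and 91.5 at 3 h, then 80.2 and 83.9 at 6 h, a fall of 0.23 on the log2 scale (SE 0.05, adjusted p = 0.00246, edgeR quasi-likelihood test). Pycr1 read 18.8 and 22.5 CPM at 0 h, 21.1 and 21.5 after 3 h and 16.1 and 17.4 after 6 h, a fall of 0.31 (SE 0.09, adjusted p = 0.0193). In both genes the 6 h libraries were the lowest of the 6. The calls of Psat1 and Pycr1 were each kept in 11 of the 15 alternatives and were lost without the second 0 h library and without the first 6 h library. Without that 0 h library the log2 changes shrank to -0.09 for Psat1 and -0.17 for Pycr1. The other serine and one-carbon genes were not called: Phgdh, the first step of serine synthesis, had a log2 fold change of -0.09, Psph, its last step, of -0.10, Shmt2, the mitochondrial serine hydroxymethyltransferase, of 0.02 and Mthfd2, a mitochondrial folate enzyme, of -0.11. Their adjusted p ran from 0.126 to 0.801. Psph shares 10.4% of its exon bases with Cct6a on the opposite strand.

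The transporters gave both directions. Slc7a11, the cystine and glutamate exchanger xCT, was the one amino acid gene of the 20 that rose. It had 6.63 and 7.14 CPM at 0 h, 8.28 and 7.08 at 3 h and, at 6 h, 10.4 and 8.91, both 6 h libraries being the highest, and a log2 fold change of 0.48 (SE 0.12, adjusted p = 0.0107, edgeR quasi-likelihood test). That call was lost without the first 6 h library, without the filter on low counts and in DESeq2 (adjusted p up to 0.115). Slc3a2, the heavy chain 4F2hc that xCT and LAT1 both need to reach the cell surface, fell in the same libraries. It stood at 171 and 176 CPM at 0 h, 168 and 164 after 3 h and 147 and 147 after 6 h, a fall of 0.24 on the log2 scale (SE 0.04, adjusted p = 0.000217).

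Slc7a5 (ENSMUSG00000040010, chromosome 8, 121881150 to 121907694, minus strand), the large neutral amino acid transporter LAT1, had the smallest adjusted p of all 34 members. Its level was 237 and 244 CPM at 0 h, 245 and 235 at 3 h, then 204 and 191 at 6 h, a fall of 0.28 on the log2 scale (SE 0.04, adjusted p = 8.05e-05, edgeR quasi-likelihood test). The arginine and lysine carriers Slc7a3 and Slc7a1 also fell. Slc7a3 read 102 and 107 CPM at 0 h, 111 and 108 after 3 h and 89.5 and 89.4 after 6 h, and fell by 0.23 (SE 0.04, adjusted p = 0.00106). Slc7a1 read 171 and 171 CPM at 0 h, 167 and 167 at 3 h and, at 6 h, 152 and 142, and fell by 0.22 (SE 0.04, adjusted p = 0.000953). For these 4 falling transporters no 6 h library overlapped any earlier one, and all 4 calls were kept in all 15 alternatives. Slc6a9, the glycine transporter GLYT1, was scarce and not called (log2 fold change 0.04, adjusted p = 0.857), and 30.2% of its exon bases overlap genes on the opposite strand.

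Of the 6 cytosolic tRNA ligases, which charge each tRNA with its amino acid, 5 fell and none rose at 6 h. Their median log2 fold change was -0.12. Over all genes tested 12.3% fell and 10% rose. Of genes with a mean of 100 CPM or more, a range that holds the 5 falling ligases, 30.7% fell. Aars (alanine) stood at 412 and 431 CPM at 0 h, 416 and 418 after 3 h and 376 and 382 after 6 h, and fell by 0.15 on the log2 scale (SE 0.03, adjusted p = 0.00315, edgeR quasi-likelihood test). Of its exon bases 14.3% are shared with Exosc6, on the same strand. Sars (serine) had 187 and 192 CPM at 0 h, 189.8 and 185 at 3 h, then 167 and 174 at 6 h, and fell by 0.15 (SE 0.04, adjusted p = 0.0085). In both genes the 6 h libraries were the lowest. The Aars call was lost without the second 0 h library (adjusted p = 0.0599, edgeR quasi-likelihood test), and the Sars call was lost without that library (adjusted p = 0.07) and without the first 6 h library (adjusted p = 0.0782).

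Gars (glycine) read 389 and 399 CPM at 0 h, 397 and 387 after 3 h and 360.0 and 369.7 after 6 h, a fall of 0.11 on the log2 scale (SE 0.03, adjusted p = 0.0238, edgeR quasi-likelihood test). Nars (asparagine) read 387 and 401 CPM at 0 h, 399 and 389 at 3 h and, at 6 h, 365 and 365, a fall of 0.11 (SE 0.03, adjusted p = 0.0265). Cars (cysteine) read 136 and 143 CPM at 0 h, 145 and 145 after 3 h and 126 and 129 after 6 h, a fall of 0.13 (SE 0.04, adjusted p = 0.0275). These 3 were small changes in well-counted genes, with 6 h libraries below all others, and were called in 7, 6 and 7 of the 15 alternatives. Wars (tryptophan) was not called, with a log2 fold change of 0.01 (adjusted p = 0.863).

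The rising members were among the less abundant of the list. Per length, on the RPKM scale (CPM divided by the merged exon length in kilobases), Asns had the highest 0 h level of the 34 at 186, followed by Gars at 126, Atf4 at 95.4 and Nars at 90.4. The 6 rising genes held ranks 19, 25, 26, 29, 30 and 34 of 34, from Ddit4 at 20.2 and Trib3 at 6.25 through Ddit3 at 5.77, Chac1 at 1.95 and Stc2 at 1.91 down to Slc7a11 at 0.495. Ranges of abundance, here by mean CPM over the 6 libraries and not per length, were therefore read over all genes. Of the 2368 genes with a mean of 100 CPM or more, 30.7% were called lower and 5.66% higher, and the median log2 change was -0.06. Of the 14 members in that range 13 were called lower and none higher, with a median of -0.16, and the exception was Shmt2. Between 10 and 100 CPM 14% of 7081 genes were called lower and 13.3% higher, against 4 lower and 4 higher of 16 members. Under 10 CPM 7.92% of 6299 genes were called higher and 3.52% lower, against 2 higher (Chac1 and Slc7a11) and none lower of 4 members. The part of abundance in the split was not tested.

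**Figure D3:**
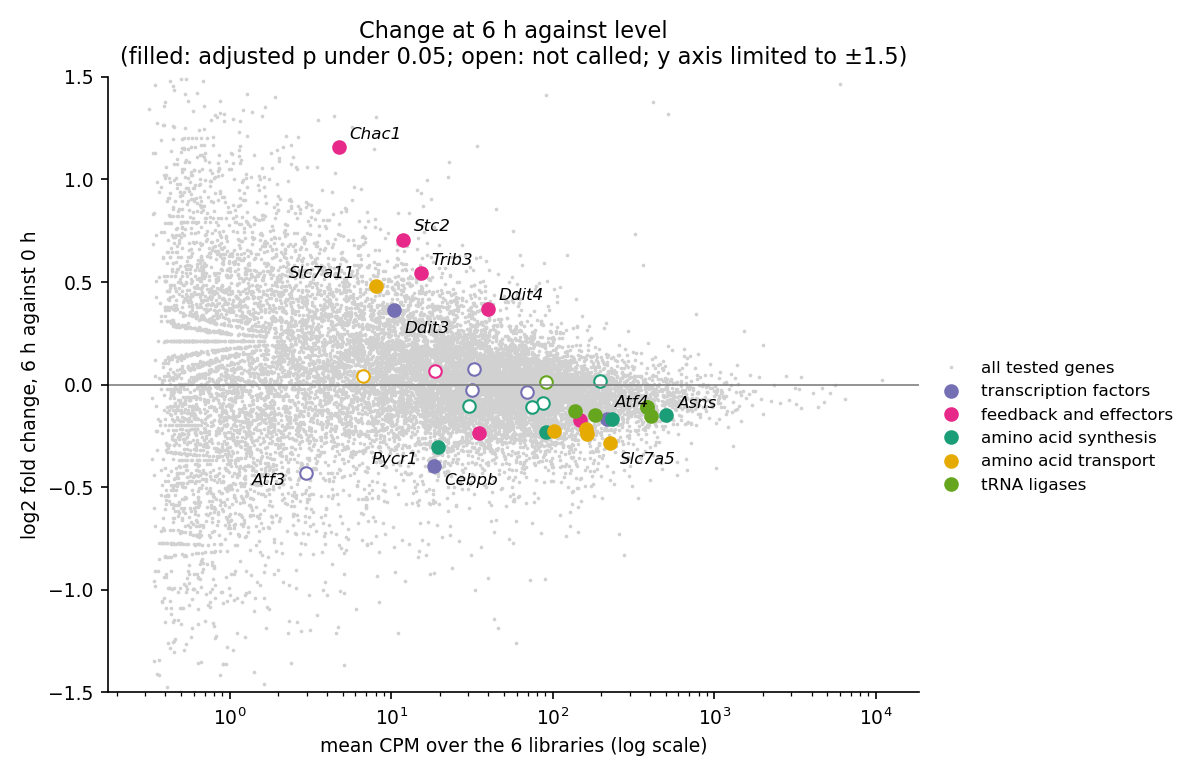
Log2 fold change at 6 h against 0 h (vertical axis, limited to 1.5 in either direction, with 66 genes outside it) against mean CPM on a log axis for the 15748 genes tested, with the 34 members marked by role. The members at 100 CPM or more lie below 0 except Shmt2, and the 6 rising members lie at lower levels.

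At 3 h none of the 34 members was called with edgeR's quasi-likelihood test, and 0.14% of all genes were (0.0508% higher and 0.0889% lower). DESeq2 and limma voom called none of the members either, and 3 had an unadjusted p under the threshold. The log2 fold changes ran from -0.28 (Cebpb, adjusted p = 0.254) to 0.30 (Chac1, adjusted p = 0.581), with a median of -0.0047 against -0.00084 over all genes tested. Without the second 0 h library, Cebpb (adjusted p = 0.0171) and Atf5 (adjusted p = 0.0416) were called lower. For Atf4 the log2 difference was -0.002, and for Ddit3 it was -0.20 (adjusted p = 0.516).

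The step from 3 h to 6 h, which is also the test of whether the change at 6 h differed from that at 3 h, gave 21 calls among the 34 members, 6 higher and 15 lower, beside 21.7% called over all genes, 9.89% higher and 11.8% lower. This comparison uses the same 6 h libraries as the one above. Higher were Chac1 with a log2 fold change of 0.85 (SE 0.16, adjusted p = 0.00109, edgeR quasi-likelihood test), Stc2, Ddit3, Trib3, Ddit4 and Nupr1. Slc7a11 was not called in this step (0.32, adjusted p = 0.0671), nor were Cebpb (-0.12, adjusted p = 0.38) and Ppp1r15a, whose 3 h levels already lay below those at 0 h. Lower were Atf4, Sesn2 and 13 amino acid genes: Asns, Psat1, Aldh18a1, Pycr1, Slc7a5, Slc7a3, Slc7a1, Slc3a2, Aars, Gars, Nars, Sars and Cars. Among the amino acid genes the median log2 fold change was -0.16, with none higher, and among the stress regulators it was 0.12. In this step 5 of the 18 feeder markers were called higher, with a median of 0.10, and with the mean of those markers added to the fit 9 rather than 15 members were called lower. In that fit the log2 changes shrank from -0.22 to -0.07 for Asns, from -0.19 to -0.08 for Psat1 and from -0.34 to -0.17 for Pycr1, and none of the 3 was called. The part of the feeder cells was not tested beyond that fit.

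Other genes of the pathway were read from further lists for 6 h against 0 h, all with edgeR's quasi-likelihood test. Over all genes tested 22.3% were called, 10% higher and 12.3% lower, which is the share to set beside each count below. Of 17 genes of the eIF2 kinases, eIF2, eIF2B and their regulators, 1 rose and 4 fell (29.4% called). Impact, an inhibitor of GCN2 activation, went from a mean of 156 CPM to 119 CPM and fell by 0.40 on the log2 scale (adjusted p = 7.04e-06). Ppp1r15b, the constitutive phosphatase subunit for eIF2, fell by 0.22 (adjusted p = 0.000342), and Eif2b5, the catalytic subunit of the exchange factor, by 0.13 (adjusted p = 0.00941). Oma1, the mitochondrial protease that relays mitochondrial stress to eIF2 kinase HRI, rose by 0.43 (adjusted p = 0.00246). None of the 4 kinase genes, singled out after their values were seen, was called: Eif2ak1 had a log2 fold change of 0.05, Eif2ak2 of -0.06, Eif2ak3 of -0.10 and Eif2ak4 of 0.10.

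Among 14 further cytosolic tRNA ligases none rose and 1 fell (7.14% called, against 22.3% over all genes tested), with a median log2 fold change of -0.07. The called one was Mars, for methionine, with -0.19 (adjusted p = 0.00139, edgeR quasi-likelihood test). Of the 14, however, 13 lay below 0 and 1 above, and 12 had both 6 h libraries below both at 0 h. The downward direction was therefore not particular to the member ligases. Of 17 mitochondrial ligases Mars2 fell, by 0.38 (adjusted p = 0.00098), and Lars2 was called higher (1.32, adjusted p = 0.00825). Lars2 varied widely within groups, with 153 and 374 CPM at 0 h, 528 and 721 at 3 h, then 940.1 and 376 at 6 h. Of 19 further amino acid enzymes 7 fell and none rose (36.8% called), with a median of -0.03. They included Shmt1, the cytosolic counterpart of Shmt2, with -0.30 (adjusted p = 8.74e-05), Tdh, the threonine dehydrogenase on which mouse ES cells depend, with -0.19 (adjusted p = 0.000388), the branched-chain transaminase Bcat1 with -0.18 (adjusted p = 0.000563) and Gldc of glycine cleavage with -0.29 (adjusted p = 0.000713).

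Of 13 further amino acid transporters 3 rose and 2 fell (38.5% called, against 22.3% over all genes tested), with a median log2 fold change of 0.07. Slc38a2, the starvation-induced neutral carrier SNAT2, fell by 0.21 (adjusted p = 0.000618, edgeR quasi-likelihood test) and Slc7a7 by 0.25 (adjusted p = 0.00578), while Slc1a4 rose by 0.24 (adjusted p = 0.00725) and Slc7a6 by 0.22 (adjusted p = 0.022). Of 11 further stress targets 10 were tested, Fgf21 being too scarce. Jdp2 rose by 0.44 (adjusted p = 0.0128), and the death receptor gene Tnfrsf10b fell by 0.28 (adjusted p = 0.000527) and the mitochondrial protease gene Lonp1 by 0.11 (adjusted p = 0.0335).

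In each of the neighbouring pathways of this paragraph more genes rose than fell. Over all genes tested 10% were called higher and 12.3% lower. The share called was 26.3% in the first list below, 46.7% in the second and 57.1% in the third, against 22.3% over all genes tested. Of 19 genes of the unfolded protein response of the endoplasmic reticulum 4 rose and 1 fell, with a median log2 fold change of 0.03: the chaperone gene Hspa5 rose by 0.14 (adjusted p = 0.00429, edgeR quasi-likelihood test), Pdia4 by 0.17 (adjusted p = 0.00225) and Herpud1 by 0.33 (adjusted p = 0.00657), and the sensor gene Atf6 fell by 0.26 (adjusted p = 0.00189). Of 15 genes of mTORC1 and nutrient sensing 6 rose and 1 fell, with a median of 0.12. The arginine sensor gene Castor1 rose by 0.33 (adjusted p = 0.000833), Nprl3 by 0.34 (adjusted p = 0.0105) and Sesn3, a relative of Sesn2, by 0.17 (adjusted p = 0.0146), and Tsc1 fell by 0.26 (adjusted p = 0.00151). Of 14 hypoxia genes 7 rose and 1 fell, with a median of 0.22. The prolyl hydroxylase gene Egln3 rose by 1.56 (adjusted p = 4.55e-10), Ankrd37 by 1.30 (adjusted p = 4.88e-06) and the glucose transporter gene Slc2a1 by 0.73 (adjusted p = 2.24e-08), and the histone demethylase gene Kdm3a fell by 0.33 (adjusted p = 3.88e-06).

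Slc7a11 is also a target of NRF2, the regulator of antioxidant genes. Of 12 other NRF2 targets 2 rose and 3 fell (41.7% called, against 22.3% over all genes tested), with a median log2 fold change of -0.02. The quinone reductase gene Nqo1 rose by 0.30 (adjusted p = 0.000874, edgeR quasi-likelihood test), while Gclc of glutathione synthesis fell by 0.43 (adjusted p = 8.74e-06), Hmox1 by 0.40 (adjusted p = 1.42e-05) and Txnrd1 by 0.13 (adjusted p = 0.00708).

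**Figure D4:**
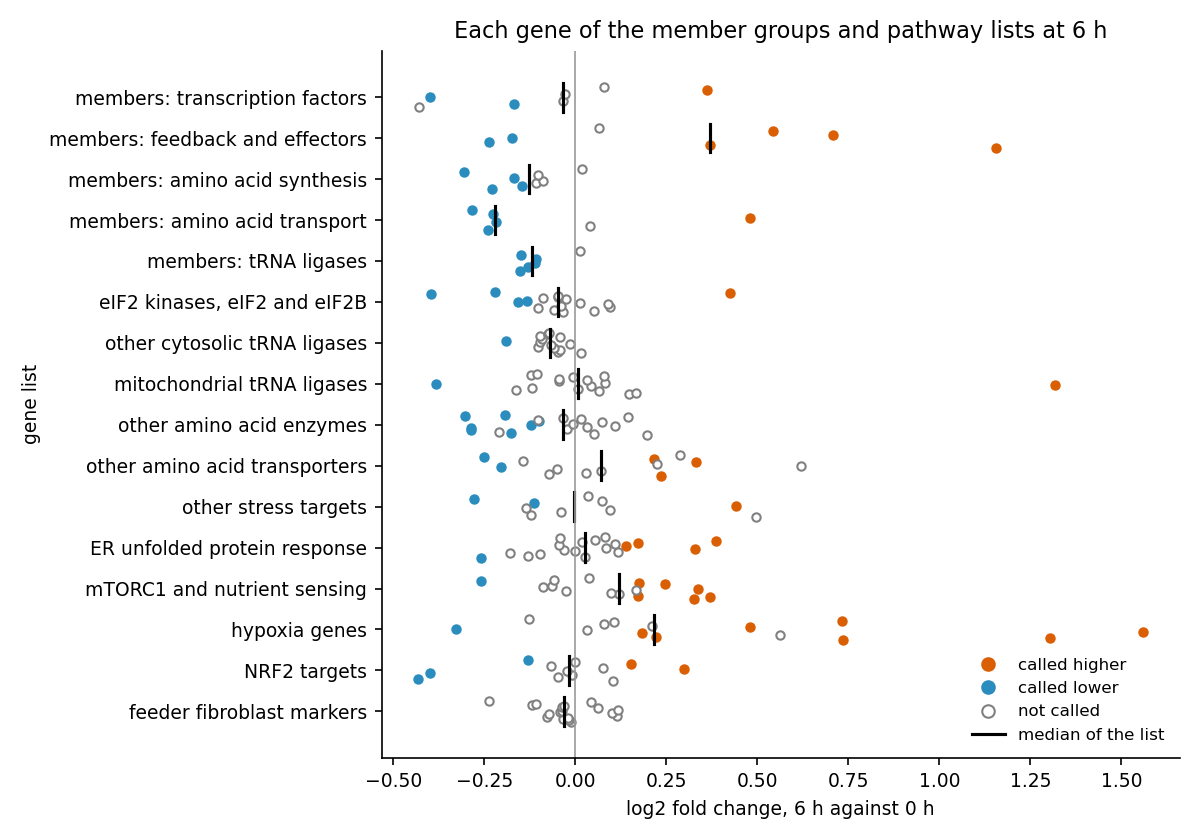
Log2 fold change at 6 h against 0 h for every tested gene of the 5 member roles, the 10 further lists and the 18 feeder markers, with called genes filled, uncalled genes open and a line at each list's median. Feedback and effector genes have the highest median of the 5 roles at 0.37 and transporters the lowest at -0.22.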

How the data were processed

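Polyadenylated RNA of 6 libraries was sequenced single-end from a stranded kit, per the labels' protocols. The deposited table gives unnormalized read counts, 1 row for each Ensembl gene. Tools named in the submitters' processing notes are featureCounts 2.0.3, HISAT2 2.2.1 and fastp 0.22.0, with GRCm38 (mm10) as build. How strand and multi-mapping reads were handled, and with which annotation release, is not given in the sources used here, so counts of overlapping genes are uncertain.

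From these counts the following was computed with edgeR 4.0.16, DESeq2 1.42.0 and limma 3.58.1 in R 4.3.3. Symbols came from GENCODE M21 (55227 of 55487 IDs matched). Where a symbol had several IDs, the one with most counts was used. filterByExpr (minimum count 10) kept 15748 genes and 99.9% of the counts. One quasi-likelihood fit used all 6 libraries, 3 group means, TMM factors and no covariate, with Benjamini-Hochberg adjustment over all genes tested. SE is the standard error of a log2 fold change. The edgeR fit was also run on simulated counts with planted changes, but changes as small as the smallest called here were not planted.

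The members and lists were chosen with earlier results of these data known. Members called in at least 1 comparison, and Atf4, Atf3, Ddit3, Trib3 and Asns in any case, are given in every library. Of each further list up to 4 called genes with the smallest adjusted p at 6 h are named. The 15 alternatives per comparison cover scaling, filtering, DESeq2, limma voom, a replicate block, a feeder covariate, a fit of 4 libraries and leaving out each library. Replicate numbers were checked for pairing: deviations of same-numbered libraries correlated at 0.0372, 0.0401 and -0.0212 over all genes tested. The numbers were not taken to pair the libraries in the main fit. Scarce genes were included without weights, and their counting noise lowers such a correlation, so the check cannot exclude pairing. One promoter stretch is not reported here.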

Additional observations from a re-analysis of the deposited data

Results flagged for a closer look

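For 21 members the change at 6 h differed from the change at 3 h, by the edgeR quasi-likelihood test of 6 h against 3 h. Both changes share the 0 h reference. Over all genes tested 21.7% were called in that comparison. The log2 fold changes from 3 h to 6 h were positive for Chac1 (0.85), Stc2 (0.73), Ddit3 (0.57), Trib3 (0.56), Ddit4 (0.29) and Nupr1 (0.20). They were negative for the regulators Atf4 (-0.17) and Sesn2 (-0.14). In amino acid synthesis they were -0.22 for Asns, -0.19 for Psat1, -0.20 for Aldh18a1 and -0.34 for Pycr1. Among the transporters they were -0.28 for Slc7a5, -0.30 for Slc7a3, -0.18 for Slc7a1 and -0.17 for Slc3a2. Among the tRNA ligases they were -0.14 for Aars, -0.10 for Gars, -0.11 for Nars, -0.14 for Sars and -0.19 for Cars. With the feeder markers as a covariate 14 members were called in this step, 5 higher and 9 lower.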

How the results depend on the processing

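Each of the 23 members called at 6 h against 0 h, and of the 21 called at 6 h against 3 h, kept its sign in all 15 alternatives, and 11 and 9 of them were called in all 15. Without the filter on low counts the calls at 3 h against 0 h, 6 h against 0 h and 6 h against 3 h were 0, 2029 and 1725 genes (22, 3515 and 3414 with it), with 14 members (10 lower) at 6 h against 0 h and 12 (7 lower) at 6 h against 3 h. DESeq2 called 12, 1581 and 1347 genes, with 15 members (11 lower) and, at 6 h against 3 h, 14 (9 lower). Without a scaling factor 12 members were lower at 6 h against 0 h and 11 at 6 h against 3 h. With TMM factors these were 17 and 15. The median log2 change over all genes was then 0.0374 and 0.0406 without the factor. Asns, Psat1, Gars, Nars and Cars lost their call at 6 h against 0 h in that setting. The feeder covariate gave 35 genes at 3 h, and 9 lower members at 6 h against 3 h. A fit of the 4 libraries compared gave 74 genes at 3 h. With the replicate number as a block 242 genes were called at 3 h, 4227 at 6 h against 0 h and 4186 at 6 h against 3 h. The members called at 6 h in that fit were 23 against 0 h and 23 against 3 h.

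Leaving out 1 library gave 4 to 249 genes and 0 to 2 members at 3 h, all lower. At 6 h against 0 h it gave 2488 to 3092 genes, 14 to 22 members, 4 to 6 of them higher and 9 to 16 lower, with 9 lower without the second 0 h library and 11 without the first 6 h library. At 6 h against 3 h it gave 1514 to 3706 genes and 11 to 22 members, 6 to 16 of them lower. The cause of these differences was not tested. The smallest of the called changes at 6 h against 0 h, those of Nars and Gars, were called in 6 and 7 of the 15 alternatives.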
